A study of Homo sapiens with 3 samples.

Results

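Box H/ACA small nucleolar RNAs (SNORA genes) and small Cajal body RNAs (SCARNA genes) were examined in the RNA crosslinking peaks of the ribosomal protein RPL22 and its paralog RPL22L1. Members were chosen by measured summits: a SNORA or SCARNA gene of the RefSeq GRCh38.p14 annotation entered when at least 1 peak summit of either peak list fell within its bounds, and 101 of 211 such genes did (82 of 182 SNORA and 19 of 29 SCARNA genes). The study used HCT116, an established human colorectal carcinoma cell line grown in McCoy's 5a medium with serum. The labels name 3 kinds of cells, expressing the HaloTag alone, RPL22 fused to the HaloTag, or RPL22L1 fused to the HaloTag, and each was a single library made by GoldCLIP, a gel-free crosslinking and immunoprecipitation method that captures protein through its covalent tag. Peaks of the 2 ribosomal protein libraries were used; cells with the tag alone were not analysed here. The promoter driving each fusion, and whether the cells were a clone, are not given in the sources used here. Peak lists hold no expression values, so the labelled cell type was not checked against marker genes. With 1 library per protein there was no replicate spread and no test between proteins. Ranges called intervals below are 95% limits, for counting error only. For shares they are by the exact Clopper-Pearson method, and for medians they are taken from the ordered values by the binomial distribution.

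H/ACA RNAs fold into a pair of hairpins joined by a hinge that carries the H box, and end with the trinucleotide ACA shortly before the 3′ end. Together with dyskerin, NHP2, NOP10 and GAR1 they guide the conversion of uridine to pseudouridine, SNORA RNAs in ribosomal RNA in the nucleolus and SCARNA RNAs in spliceosomal RNA in Cajal bodies. Most human members lie in introns of host genes and are released by trimming of the excised intron. Some SCARNA RNAs are of the other snoRNA class, box C/D, which guides ribose methylation, or combine both.

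The RPL22 list held 154000 peaks with a median score of 33 and the RPL22L1 list 254413 peaks with a median score of 124. The lowest score was 13 in both. The scale of the score is not given in the sources used here, so scores were read only by their rank within their own list, where rank 1 is the highest score. The lists give neither strand nor RNA level, so more RNA and more crosslinking per RNA cannot be told apart.

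Where a summit sits in the RNA can be read in letters for the few members that contain an annotated microRNA hairpin, whose RefSeq sequence (GRCh38.p14) runs 5′ to 3′ below, with the bases of the RPL22L1 peak in capitals. They are shown because 3 of them hold the summit just before the ACA and the last does not. SNORA81 also contains a hairpin, MIR1248, but no base of its peak lies in it, so it is not printed; its summit lay 18 bases before the RNA's last base. SNORA36B lies in an intron of RAB3GAP2 and contains MIR664A at chr1:220200538-220200619 on the minus strand. SNORA36A lies in DKC1, the gene of dyskerin, and contains MIR664B at chrX:154768596-154768656 on the plus strand. SNORA84 lies in IARS1 and contains MIR3651 at chr9:92292458-92292547 on the minus strand. SCARNA3 lies in COP1 and overlaps MIR1843 at chr1:175968370-175968479 on the minus strand.
MIR664A in SNORA36B: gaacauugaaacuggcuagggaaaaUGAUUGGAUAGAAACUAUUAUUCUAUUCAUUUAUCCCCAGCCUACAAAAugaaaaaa
MIR664B in SNORA36A: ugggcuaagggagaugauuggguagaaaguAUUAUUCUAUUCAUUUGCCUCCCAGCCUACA
MIR3651 in SNORA84: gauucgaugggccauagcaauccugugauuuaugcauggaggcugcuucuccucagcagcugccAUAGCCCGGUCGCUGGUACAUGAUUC
MIR1843 in SCARNA3: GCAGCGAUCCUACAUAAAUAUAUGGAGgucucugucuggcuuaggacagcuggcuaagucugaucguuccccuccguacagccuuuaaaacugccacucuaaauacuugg

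In SNORA36B the RPL22 and the RPL22L1 summits fell on the same base, base 59 of the hairpin, inside the mature miR-664a-3p. In SNORA36A both summits fell on base 49, inside miR-664b-3p, and in SNORA84 the RPL22L1 summit fell on base 72, inside miR-3651. In each of these 3 the summit lay 12 bases before the last base of the ACA. The mature 664a-3p and 664b-3p RNAs carry the same letter at 14 of 22 positions when aligned without gaps from the 3′ end. The 2 hairpins above share a further run of letters upstream that this alignment does not pair, so the count understates how alike they are. Reads may be shared between such copies. The RPL22 peak covered 32 of the 82 hairpin bases in SNORA36B, where the RPL22L1 peak covered 49. In SCARNA3 the RPL22L1 peak covered the first 27 bases of the hairpin, and its summit lay upstream of them, 84 bases before the last base of the ACA. The letters ACA stood at bases 6 to 4 from the RNA's last base in 5 of 5 genes where a hairpin's letters cover that place; in SNORA36A the letters stop 3 bases before the RNA's end. The same letters at that place occur in 1.79% of all 1560 hairpins (2.05% on the other strand) and in 1.01% of 35116 promoter windows (1.51% on the other strand). A letter match is a description of the sequence only.

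SNORA36B had a peak score of 60072 with RPL22 (rank 48) and 83420 with RPL22L1 (rank 66). SNORA36A scored 30133 (rank 80) and 46588 (rank 102). The third gene of that number, SNORA36C in AAK1, scored 3299 (rank 318) and 6424 (rank 313), so all 3 were high in both lists. SNORA84 had no RPL22 summit and an RPL22L1 score of 2716 (rank 537), and SCARNA3 had an RPL22L1 score of 336 (rank 21331).

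By the rule that chose the members, 70 of the 211 genes held an RPL22 summit (33.2%, interval 26.9 to 39.97%) and 90 held an RPL22L1 summit (42.7%, 35.9 to 49.6%). Over all 59712 genes of the annotation the shares were 35.1% and 36.8%, but most of those genes are far longer. Among the 6814 other genes of 86 to 421 bases, the length range of the class, 6.08% held an RPL22 summit and 7.59% an RPL22L1 summit. That set includes SNORD genes of such length. Box C/D snoRNA genes, which also lie in introns, stood between: 48 of 362 SNORD genes held an RPL22 summit (13.3%, 9.94 to 17.2%) and 80 an RPL22L1 summit (22.1%, 17.9 to 26.7%). SNORD genes are shorter and have less room for a summit. The median length of those with a summit was 82.5 bases, against 134 for the members. SNORA genes were hit at 33.5% (61 of 182) and 40.1% (73 of 182). SCARNA genes were hit at 31.0% (9 of 29, 15.3 to 50.8%) by RPL22 and 58.6% (17 of 29, 38.9 to 76.5%) by RPL22L1, and these wide intervals overlap.

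**Figure D1:**
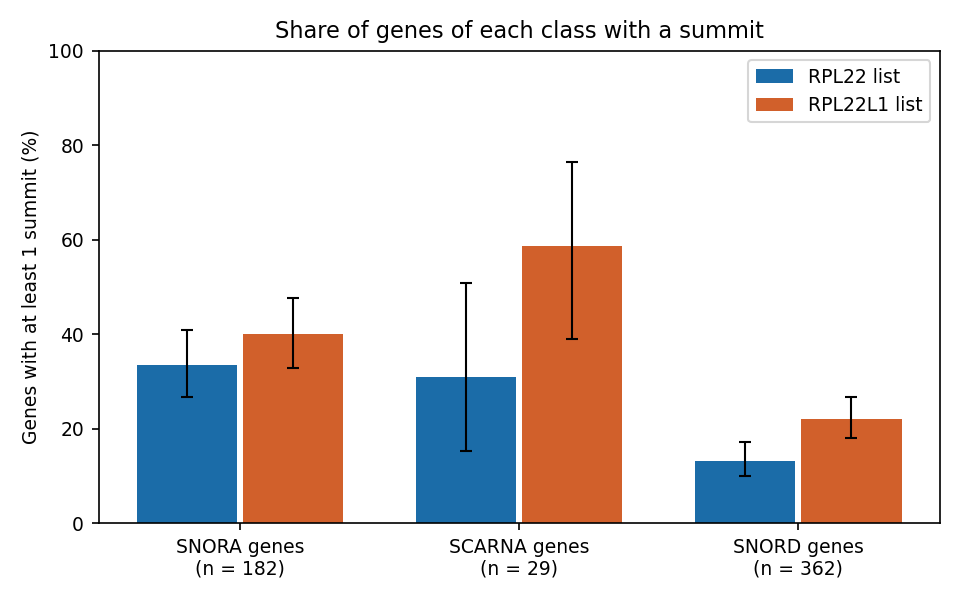
Percent of SNORA (n = 182), SCARNA (n = 29) and SNORD (n = 362) genes with at least 1 summit for RPL22 (blue) and RPL22L1 (orange); error bars are exact 95% binomial intervals, which cover counting error only. SNORA genes reach 33.5% and 40.1%, SNORD genes 13.3% and 22.1%, and the 2 SCARNA intervals are the widest.

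Summits were dense inside the RNAs and sparse around them. Over all 211 genes there were 2.31 RPL22 and 2.94 RPL22L1 summits per kb inside the RNA. The 500 bases on each side held 0.0687 and 0.191 per kb, and the rest of the host genes 0.116 and 0.216 per kb. For SNORD genes the densities were 1.54 and 2.58 per kb inside, 0.0544 and 0.0906 in the flanks, and 0.135 and 0.230 in the rest of the host. Of the 101 members, 97 lie in a longer gene.

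In all, 59 of the 101 members were hit in both lists (58.4%, 48.2 to 68.1%), 11 in the RPL22 list only (10.9%) and 31 in the RPL22L1 list only (30.7%). Over all genes with a summit in either list those shares were 67%, 14.6% and 18.4%, and over the 740 other genes of like length 25.8%, 30.1% and 44.1%. Of the 92 SNORD genes hit in either list, 36 were hit in both (39.1%), 12 in RPL22 only and 44 in RPL22L1 only. Seen from each list, 84.3% of the 70 RPL22 members also held an RPL22L1 summit, and 65.6% of the 90 RPL22L1 members also held an RPL22 summit. Over all genes the same counts were 17227 of 20977 and 17227 of 21972, and over other genes of like length 191 of 414 and 191 of 517. The members' RPL22 share was thus close to that of all genes and their RPL22L1 share below it. Both were above those of other genes of like length. The RPL22L1 list was longer, and cutting it to the length of the RPL22 list left 30 members in RPL22L1 only, 12 in RPL22 only and 58 in both. Among SCARNA genes 7 were hit in both lists, 2 in RPL22 only and 10 in RPL22L1 only.

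The members' peaks ranked near the top of both lists. The highest peak of 51 of 70 RPL22 members stood among the 1000 highest peaks (72.9%, 60.9 to 82.8%), as did that of 65 of 90 RPL22L1 members (72.2%, 61.8 to 81.1%). Among all genes with a summit in the list the same shares were 4.41% and 4.07%, and among other genes of like length 22% and 18.4%. SNORD genes were close to the members, at 72.9% (35 of 48) and 65.0% (52 of 80). The median rank was 212.5 for RPL22 (15 to 100612) and 291.5 for RPL22L1 (4 to 219925), which is the top 0.138% and 0.115% of peaks. Members held 24 of the 100 highest RPL22 peaks and 26 of the 100 highest RPL22L1 peaks. In the 59 members hit in both, the 2 ranks rose together, with a Spearman rho of 0.95, against 0.93 over 36 SNORD genes; these are correlations across genes of the same libraries, and genes are not replicates.

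**Figure D2:**
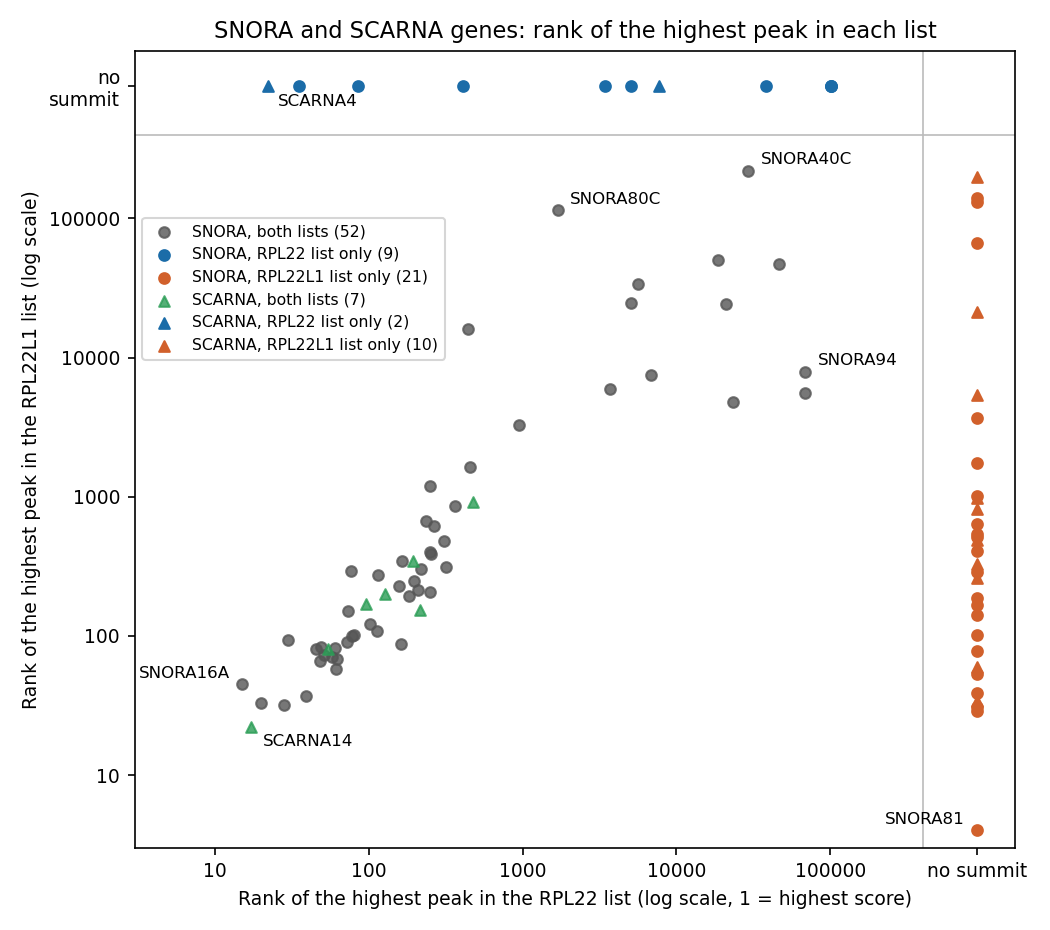
Rank of each member's highest peak in the RPL22 list (x) and the RPL22L1 list (y), both on log scales with rank 1 the highest score; circles are SNORA and triangles SCARNA genes, and the strips at the top and right hold members with no summit in the other list. SCARNA14 and SNORA16A sit at the lower left, near the top of both lists, and SNORA81 at RPL22L1 rank 4 with no RPL22 summit.

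In the RPL22 list the highest member was SNORA16A, in the snoRNA host gene SNHG12, with a score of 201288 (rank 15). SCARNA14 in TIPIN, a gene of replication fork protection, followed with 177872 (rank 17). SNORA25 in TAF1D, a subunit of the RNA polymerase I selectivity factor, scored 142406 (rank 20). Then came SCARNA4 in KHDC4 at 134193 (rank 22), SNORA72 in the ribosomal protein gene RPL30 at 115366 (rank 28) and SNORA44, also in SNHG12, at 101663 (rank 30). SNORA10 in RPS2 scored 86805 (rank 35), SNORA19 in EIF3A 81328 (rank 39), SNORA71D 67747 (rank 45) and SNORA36B 60072 (rank 48). SCARNA4 and SNORA10 of these 10 had no RPL22L1 summit.

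In the RPL22L1 list SNORA81 stood apart, with a score of 3653287 (rank 4), from SCARNA14 at 420908 (rank 22). SNORA81 lies in an intron of EIF4A2, which encodes a translation initiation helicase. SNORA8 in TAF1D scored 287728 (rank 29), SNORA79 in GTF2A1, a subunit of the general transcription factor TFIIA, 256493 (rank 31), and SNORA72 237199 (rank 32). SNORA25 scored 236753 (rank 33), SCARNA18 in TMEM167A 233061 (rank 34), SNORA19 207662 (rank 37), SNORA32 in TAF1D 199384 (rank 39) and SNORA16A 171669 (rank 45). SNORA81, SNORA8, SNORA79, SCARNA18 and SNORA32 of these 10 had no RPL22 summit.

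Those 5 were the highest of the 31 members hit in RPL22L1 only. The nearest RPL22 summit lay 15707 bases outside SNORA81, 993 bases outside SNORA8, 5271 outside SNORA79 and 5245 outside SCARNA18. The summit nearest to SNORA32, 455 bases away, was the one inside its neighbour SNORA25 (rank 20). SNORA2B (rank 53) and SNORA2A (rank 141) in KANSL2, SCARNA28 in TRRAP (rank 60), SNORA33 in RPS12 (rank 78) and SNORA4 in EIF4A2 (rank 101) followed, and were named after their values were seen. In that order, the nearest RPL22 summit of any score lay 5556, 5119, 5719, 12067 and 14810 bases outside them. Whether a missing summit means less crosslinking or only that no peak was called was not tested. Among the 11 RPL22-only members the 5 highest were SCARNA4, SNORA10, SNORA3A in RPL27A (rank 85), SNORA77B in RANBP1 (rank 408) and SNORA47 in ZBED3 (rank 3424). The nearest RPL22L1 summit lay 6035 bases outside SCARNA4, 511 outside SNORA10, 1204 outside SNORA3A, 614 outside SNORA77B and 180 outside SNORA47. Only 1 RPL22L1-only member, SCARNA21, had an RPL22 summit within 100 bases, 36 bases outside its bounds (rank 784), and only 1 RPL22-only member, SNORA68B, an RPL22L1 summit within 100 bases, 38 bases outside.

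Overlap was also counted among high peaks alone. Of the 51 RPL22 members ranked 1000 or better, 47 were also hit by RPL22L1 (92.2%, 81.1 to 97.8%), beside 93.7% of all genes and 81.3% of other genes of like length with so high a peak. Of the 65 such RPL22L1 members 43 were also hit by RPL22 (66.2%, 53.4 to 77.4%), beside 85.6% and 56.8%. For SNORD genes the counts were 27 of 35 and 26 of 52.

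Genes that share a host were hit together in some hosts and not in others. Of 6 genes in TAF1D, RPL22 hit SNORA25 and SNORA18, and RPL22L1 hit those and also SNORA8 and SNORA32. Of 4 genes in EIF4A2 RPL22 hit 0 and RPL22L1 hit SNORA81 and SNORA4, of 3 in KANSL2 RPL22 hit 0 and RPL22L1 hit SNORA2A and SNORA2B, and in CNOT1, the scaffold of a deadenylase complex, RPL22 hit 0 of 2 and RPL22L1 hit both, SNORA46 and SNORA50A. In RPL27A, RPS2 and KHDC4 2 of 2 were hit by RPL22 and 1 of 2 by RPL22L1. Both genes in DKC1, SNORA36A and SNORA56, were hit by both proteins. These hosts and their genes were chosen after their values were seen. By host class, 13 of 20 genes in ribosomal protein genes held a summit (65%; 2 in RPL22 only and 2 in RPL22L1 only), 11 of 24 in SNHG genes (45.8%), 67 of 136 in other protein-coding genes (49.3%), 6 of 20 in other genes and 4 of 11 outside longer genes.

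Genes that share a number are named as copies of one RNA. Those named here were chosen after their values were seen. All 5 SNORA80 genes and all 3 SNORA36 genes were hit in at least 1 list, against 1 of 10 SNORA70 and 2 of 7 SNORA11 genes. RPL22 hit all 3 SNORA36 genes but 4 of the 5 SNORA80 genes. SNORA80D was hit by RPL22L1 only, with a score of 113 (rank 141131), below that list's median of 124. Reads of close copies may be shared between them, and the mapping of such reads is not given in the sources used here. Of the 123 genes whose number is shared, 56 were hit, and of the 88 others 45.

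Among the long-known H/ACA RNAs, SNORA62 in RPSA scored 31096 (rank 78) with RPL22 and 47410 (rank 100) with RPL22L1. SNORA64 in RPS2 scored 31654 (rank 77) and 7142 (rank 293), SNORA65 in RPL12 6762 (rank 218) and 6860 (rank 300), and SNORA74A, the U19 RNA, in SNHG4 16206 (rank 114) and 8236 (rank 273). SNORA73A and SNORA73B, the U17 RNAs needed for cleavage of the ribosomal RNA precursor, had no summit in either list, and neither did SNORA74B or SNORA63. The nearest summits to SNORA73A and SNORA73B lay 1276 and 2469 bases outside for RPL22, and 587 and 400 bases outside for RPL22L1. An RPL22L1 summit lay 306 bases outside SNORA63, inside SNORA4.

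The SCARNA members covered all box classes. Of the plain box C/D RNAs, SCARNA2, which has no host, ranked 479 with RPL22 and 917 with RPL22L1, and SCARNA7 in KPNA4 ranked 216 and 154. SCARNA9 in CEP295 (rank 485) and SCARNA17 in SNHG22 (rank 978) were hit by RPL22L1 only, as was the related SCARNA9L (rank 5404). Of those that combine both boxes, SCARNA10 in NCAPD2 ranked 127 and 200, SCARNA5 in ATG16L1 was hit by RPL22L1 (rank 330) and SCARNA12 in PHB2 by RPL22 (rank 7750). Of the rest, SCARNA14 ranked 17 and 22, SCARNA27 54 and 80, SCARNA13 96 and 169 and SCARNA15 194 and 343. SCARNA11 (rank 262), SCARNA22 (rank 812), SCARNA18, SCARNA28, SCARNA3 and SCARNA21 (rank 198054) were hit by RPL22L1 alone and SCARNA4 by RPL22 alone. SCARNA20 in USP32 lay just outside the rule: its RPL22 summit (rank 602) and RPL22L1 summit (rank 1228) both fell 3 bases outside its bounds. Just inside it was SCARNA17, whose summit fell on its last base.

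Summits lay near the 3′ end of the RNA. Strand was taken from a microRNA inside the RNA or from all longer genes around it where these agreed, which oriented 73 of the 101 members (59 SNORA and 14 SCARNA) and left 28 without a strand. The highest RPL22 summit lay a median of 15 bases before the RNA's last base (range 4 to 193; interval of the median 13 to 24; 46 members), and the highest RPL22L1 summit 19 bases (0 to 325; 17 to 25; 66 members). On a scale from 0 at the 5′ end to 1 at the 3′ end the medians were 0.88 (interval 0.845 to 0.903) and 0.86 (0.8125 to 0.883). A position above 0.5 was held by 40 of 46 RPL22 members (87.0%, 73.7 to 95.1%) and 56 of 66 RPL22L1 members (84.8%, 73.9 to 92.5%). SNORA genes met it in 35 of 40 and 49 of 54, and SCARNA genes in 5 of 6 and 7 of 12.

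SNORD genes met the limit of 0.5 in 31 of 32 (96.9%) and 50 of 53 (94.3%), with a median of 16.5 and 20 bases to the 3′ end. Above 0.75 lay 37 of 46 RPL22 members (80.4%) and 47 of 66 RPL22L1 members (71.2%), against 22 of 32 (68.8%) and 26 of 53 (49.1%) SNORD genes. SNORD genes are the shorter class, with 31.7 kb over 362 genes against 31.6 kb over 211, so the same distance in bases is a lower relative position in them. Summits were also counted in bases around all 147 oriented genes, hit or not. Those inside an RNA are the members' summits again, so the wider set adds only the summits outside. For RPL22, 36 summits lay in the last 40 bases, 4 in each of the 40-base steps before them, and 2 in the 40 bases past the end. For RPL22L1 the counts were 51, 7, 6 and 4. Of the members without a strand, 20 of 24 RPL22 and 21 of 24 RPL22L1 summits lay within 0.25 of the RNA's length of either end.

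**Figure D3:**
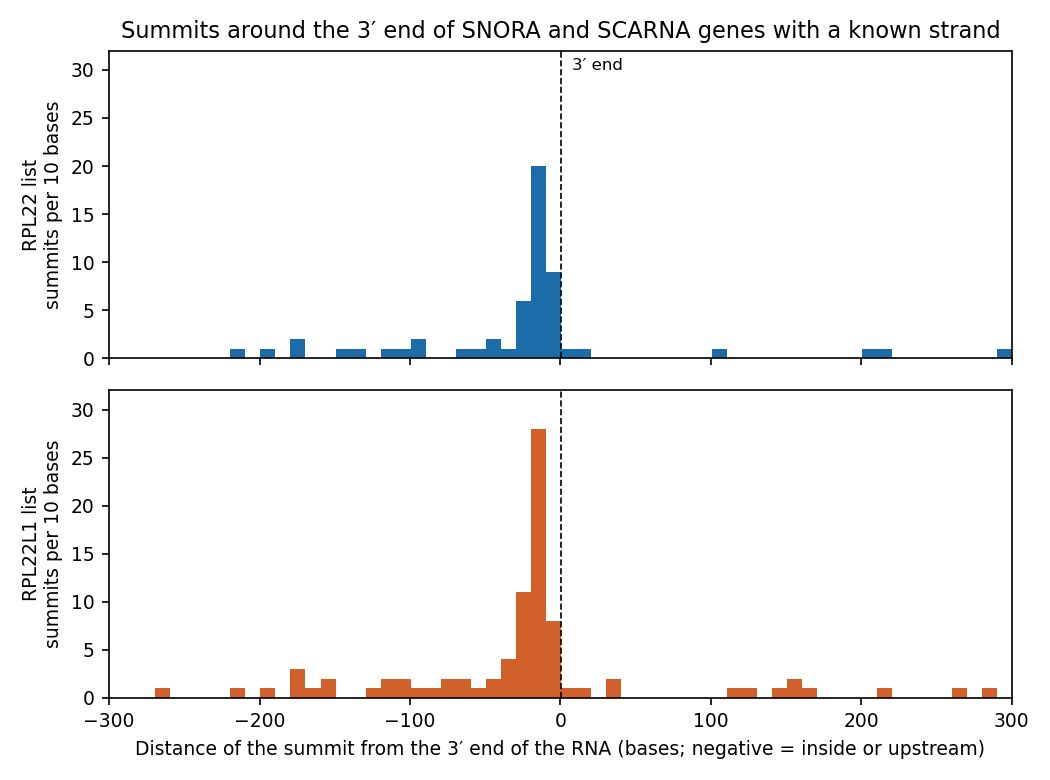
Number of summits per 10 bases around the 3′ end (0 on the x axis, in bases, negative before the end) of the 147 SNORA and SCARNA genes with a known strand, for the RPL22 list (top) and the RPL22L1 list (bottom). In both lists the highest bar stands 10 to 20 bases before the end, and few summits lie past it.

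The position was then set against rank. Of members ranked 1000 or better, 30 of 34 RPL22 (88.2%) and 40 of 46 RPL22L1 summits (87.0%, 73.7 to 95.1%) lay above 0.75, and of those ranked lower 7 of 12 (58.3%) and 7 of 20 (15.4 to 59.2%). For RPL22 the intervals were 72.5 to 96.7% and 27.7 to 84.8%. Genes of 1 library are not replicates, so a link of position to rank, or a difference in it between the proteins, was not tested. The strong exceptions, below 0.5, were SCARNA10, SNORA58 and SNORA69 for RPL22 and SCARNA10 and SCARNA9 for RPL22L1. SCARNA10 is of the mixed kind, as is SCARNA5, whose RPL22L1 summit lay at 0.937. SCARNA9 is of the box C/D kind, as is SCARNA17, whose RPL22L1 summit lay at 0.999. The SCARNA9 peak was exactly 30 bases wide with the summit at offset 15. A link of position to box class was not tested.

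**Figure D4:**
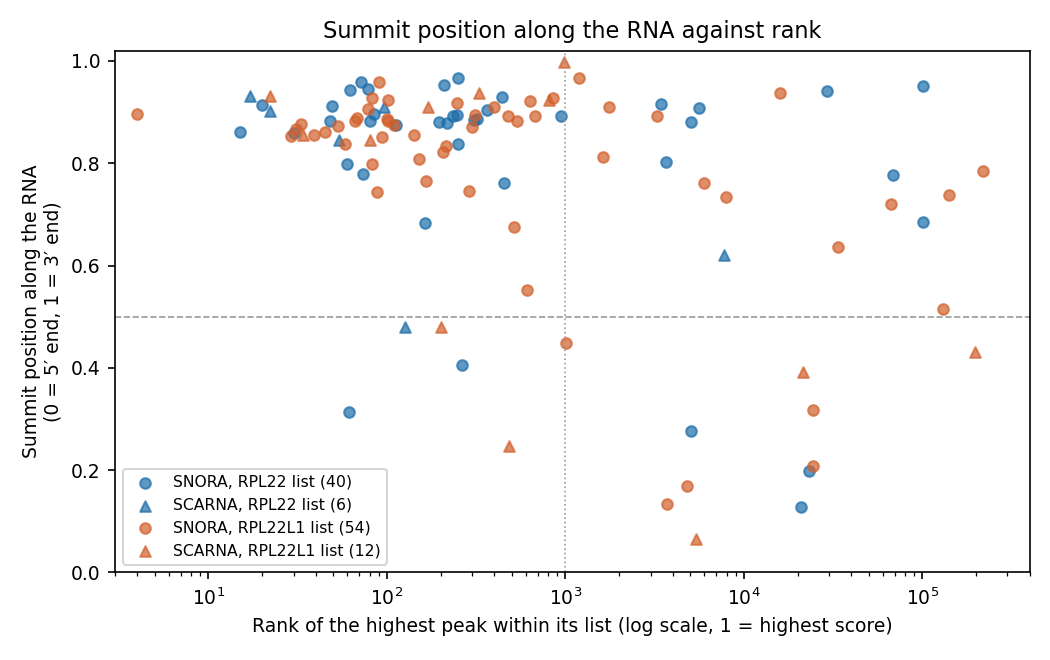
Position of the highest summit along the RNA (y; 0 is the 5′ end, 1 the 3′ end) against the rank of the peak in its list (x, log scale), for oriented SNORA (circles) and SCARNA (triangles) members in the RPL22 (blue) and RPL22L1 (orange) lists; the dashed line is position 0.5 and the dotted line rank 1000. Left of the dotted line 30 of 34 and 40 of 46 summits lie above 0.75, and right of it 7 of 12 and 7 of 20.

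Peaks of the 2 lists stood at the same place where both hit a member. Whether the tag alone peaks there too was not tested. The highest peaks overlapped by at least 1 base in 57 of 59 members (96.6%, 88.3 to 99.6%). Their summits were on the same base in 22, within 1 base in 32 and within 5 bases in 43 of the 59, with a median distance of 1 base (0 to 69). SNORD genes were alike: 36 of 36 overlapped, and the summits were on the same base in 18, within 1 base in 21 and within 5 bases in 27 of the 36. The exceptions were SNORA87 in TCF7L2 (ranks 20998 and 24290) and SNORA69 in RPL39. SNORA69 had 2 RPL22L1 peaks, the higher 21 bases from the 3′ end (rank 58) and the lower 90 bases from it (rank 120). Its RPL22 peak (rank 61) had its summit on the same base as the lower one. Most members had 1 summit in a list, 67 of 70 and 87 of 90, and 3 had 2 in each.

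Peaks that are exactly 30 bases wide with the summit at offset 15, as 64.9% of RPL22 peaks and 77.9% of RPL22L1 peaks were, made up 5 of 70 (7.14%) and 5 of 90 (5.56%) of the members' highest peaks. Of the members ranked 1000 or better, 0 of 51 (upper limit 6.98%) and 1 of 65 had this shape, SCARNA9, against 3.79% and 2.8% of all peaks of such rank. The members' median peak width was 34 bases for RPL22 and 36 for RPL22L1.

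Members hit in both lists were also compared by the percentile of their highest peak, which allows for the different lengths of the lists. The members that stood higher among RPL22L1 peaks by the most were SNORA99 in GATA4, in the top 2.17% with RPL22L1 and the top 44.6% with RPL22, and SNORA94 in UQCRC1, in the top 3.11% and 44.6%. The RPL22 peaks of both scored 33, the median of that list, and tied at rank 68706. That of SNORA99 was also 30 bases wide with the summit at offset 15. SNORA104 (top 1.89% and 15.1%), SNORA22B (18.4% and 30.2%) and SNORA87 (9.55% and 13.6%) followed. The members that stood higher among RPL22 peaks by the most were SNORA40C in AMD1, in the top 19.1% with RPL22 and the top 86.4% with RPL22L1, and SNORA80C, in the top 1.098% and 44.8%. Their RPL22L1 peaks scored 43 and 132, beside a median of 124 in that list. SNORA77 (top 3.64% and 13.3%), SNORA41B (12.2% and 19.6%) and SNORA38B (3.27% and 9.65%) followed. None of these 10 ranked among the 1000 highest peaks of either list, and with 1 library each the differences were not tested.

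The genes of the proteins that make and use H/ACA RNAs carried summits too. All 15 held an RPL22 summit and 13 of 15 an RPL22L1 summit, against 35.1% and 36.8% of all genes. They span 1418 to 194560 bases apart from TERC, with 451, and longer genes have more room for summits. Leaving out the flat peaks, those 30 bases wide with the summit at offset 15, 14 and 10 of the 15 held a summit, and 56 of 122 RPL22 and 52 of 182 RPL22L1 summits remained. Of all 59712 genes, 22.1% held an RPL22 summit of a peak that is not flat, and 19.6% held such an RPL22L1 summit. None of the RPL22L1 peaks of NHP2, NOP10 and TERT, and not the RPL22 peak of PARN, was left. In DKC1, which encodes the pseudouridine synthase, both RPL22 summits were those inside SNORA36A and SNORA56, and so were 2 of 10 RPL22L1 summits. NHP2 held 3 and 7 summits, NOP10 1 and 1, and GAR1 2 and 12, with the highest at rank 3263 and 1877. Of the assembly factors, NAF1 held 17 and 33 (ranks 722 and 1162), SHQ1 16 and 27, RUVBL1 21 and 30 (ranks 1411 and 1087) and RUVBL2 7 and 6. WRAP53, which brings RNAs to the Cajal body, held 7 and 5, COIL, the scaffold protein of that body, 2 and 5, and NOLC1, a chaperone of snoRNPs, 5 and 13. TENT4B, which adds short tails to such RNAs, held 24 and 25, and PARN, which trims them, 1 and 0. TERT held 13 and 8, and TERC, the telomerase RNA, an H/ACA RNA itself, had 1 RPL22 peak with a score of 743 (rank 936) and no RPL22L1 summit.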

How the data were processed

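Crosslinked RNA was sequenced from 1 library per protein. The submitters' processing notes name cutadapt 4.8, STAR 2.7.10a, UMI-tools 1.1.5 and MACS3 3.0.0a6 and the build hg38, without their roles or parameters; the control track is not given in the sources used here. The deposited peak lists give, per the file contents, a position, a score made by the authors and a summit offset in bases. Columns 7 to 9 are 0 throughout and no strand is given. From these, with Python 3.11.15 and pandas 2.3.3, the summit of each peak was assigned to every gene of the RefSeq GRCh38.p14 table that holds it. Exact Clopper-Pearson intervals of shares, and the binomial distribution used for intervals of medians, came from scipy 1.17.1. The scripts were tested on simulated data. The members and the lists were chosen with earlier results of these data known. Genes named are the 10 highest members of each list, every SCARNA member, the 5 members of both lists with the largest percentile difference in each direction, the 5 highest of 1 list only, the long-known RNAs given above and the pathway genes. All others, such as the host and family examples, SNORA58, SNORA69 and SCARNA20, were chosen after their values were seen. The strand rule was chosen after seeing values.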

Additional observations from a re-analysis of the deposited data

How the results depend on the processing

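All 82 of 82 alternative values stayed within 1.5-fold or the interval of the reported one. This limit is weak for the relative positions, the overlap shares and the shares above 0.5. They lie too near their highest possible value to rise 1.5-fold. The alternatives kept only peaks at or above the median score, left out flat peaks or cut the lists to equal length. Others counted any shared base, or widened genes by 20 or narrowed them by 10 bases. For score percentiles and positions every summit was also used in place of the highest, and for positions the strand rule was changed. RPL22 members ranged from 57 to 71, RPL22L1 members from 78 to 91 and members of both from 44 to 60, each lowest with narrowed genes. The share of members of both lists whose peaks overlap ranged from 95.0 to 98.2%. Median relative positions ranged from 0.868 to 0.884 for RPL22 and 0.845 to 0.865 for RPL22L1, and the shares above 0.5 from 84.2 to 88.4% and 83.1 to 88.7%. The strand alternatives, and all alternatives of the share above 0.5, were added after the data were seen. Lists of equal length leave the RPL22 list as it is by construction. No paired analysis was possible because there is 1 library per group. Counts of reads behind the peaks were not used here, so precision cannot be given beyond counts of genes.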
